A study of Mus musculus with 8 samples.

Results

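The 9 genes described here mark mesothelial cells, and their transcripts were followed in RNA of adipose precursor (AP) pools. They were taken by name (Msln, Upk3b, Lrrn4, Krt8, Krt18, Krt19, Gpm6a, Muc16 and Bnc1) from 19938 genes that had a probe set (the probes that together read a transcript) annotated with 1 symbol. Each of the 9 had 1 such probe set, so no choice between probe sets was needed.

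RNA was hybridized to 8 Mouse Gene 1.0 ST arrays, which read 1 colour, with 2 arrays for each combination of diet and depot. The groups were precursors of inguinal subcutaneous fat (scAP) and of perigonadal visceral fat (viAP), each from C57BL/6J males given either a standard diet (SD) or a diet high in fat (HFD) for 3 days. The mice were wild type and 7 to 8 weeks old, and each array held a pool of 3 animals. To purify the precursors, beads that bind CD45 and CD31 took out blood and endothelial cells, and SCA-1 beads then captured the precursors. Neither step was directed at mesothelial cells.

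The mesothelium is the single sheet of flat epithelial cells that covers the organs of the body cavities. It lies over perigonadal fat, a depot inside the peritoneal cavity, whereas inguinal fat lies under the skin and has no such cover. Mesothelial cells carry keratins as other epithelia do, together with mesenchymal features, and display mesothelin and mucin 16 on their surface. In a bulk pool, fewer cells of a type and less RNA per cell cannot be told apart.

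The deposited values are intensities on a linear scale and are given here as log2, so that a difference of 1 is 2-fold. A probe set was called when limma's Benjamini-Hochberg adjusted p over all 21789 probe sets with 1 symbol was under 0.05 and the change was at least 2-fold. Each comparison of 2 groups rests on 2 pools against 2, and the comparison of the depots' diet differences uses all 8. The p-values rest on the spread between pools, estimated once per probe set over the 4 groups. The SD viAP pair therefore enters the standard error of every comparison fitted to all 8 arrays. Where an array is left out, its group holds 1 pool. Levels of different probe sets are not compared, since probes differ in brightness.

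The arrays were first checked against their labels. Tbx15, a transcription factor of subcutaneous fat, was between 9.34 and 9.67 on the 4 scAP arrays and between 3.91 and 4.70 on 3 viAP arrays, but it was 9.77 on the array labelled SD viAP replicate 4. Hoxc10, a positional gene of the hind body, showed the same split with 7.73 on that array, inside the scAP range of 7.65 to 8.09. Tcf21, a transcription factor of visceral mesenchyme, was between 9.61 and 10.61 on the other viAP arrays and 5.32 on that array, inside the scAP range of 5.04 to 5.52. This array therefore went against its depot label in these genes, and the comparisons that rest on it are given with and without it. Among the other depot genes examined, Hoxc9, En1, Shox2, Sfrp2, Wt1 and Nr2f1 also lay within their scAP ranges there. So did Gata4, which did not separate the depots. Hoxc8 (9.29, scAPs 8.97 to 9.14) and Gata6 (8.34, scAPs 8.15 to 8.24) lay above theirs, toward the other viAP arrays. Bnc1, at 5.25, was highest there. Of 12 precursor genes 11 were measured, and all 11 exceeded a log2 level of 7 on at least 3 arrays, with Pdgfra between 11.01 and 11.56. Their mean was 10.56 on SD viAP replicate 3 and between 11.23 and 11.75 on the other arrays, though Dcn was highest there. Cd68, a blood cell gene, was 7.84 on that array and at most 7.03 elsewhere. The mean of the blood cell genes was 5.37 there, between the 5.14 and 5.44 of other arrays. The part of this in the members' levels was not tested.

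None of the 9 mesothelial genes exceeded a log2 level of 7 on 3 or more arrays, a level that 33.6% of the probe sets with 1 symbol reached. Over all members and arrays the levels ran from 3.46 to 7.77. The median of an array, taken over all its probe sets with or without a symbol, was between 5.58 and 5.76. Upk3b exceeded 7 on 2 arrays and Krt8 on 1. The level at which a transcript counts as present was not tested.

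**Figure D1:**
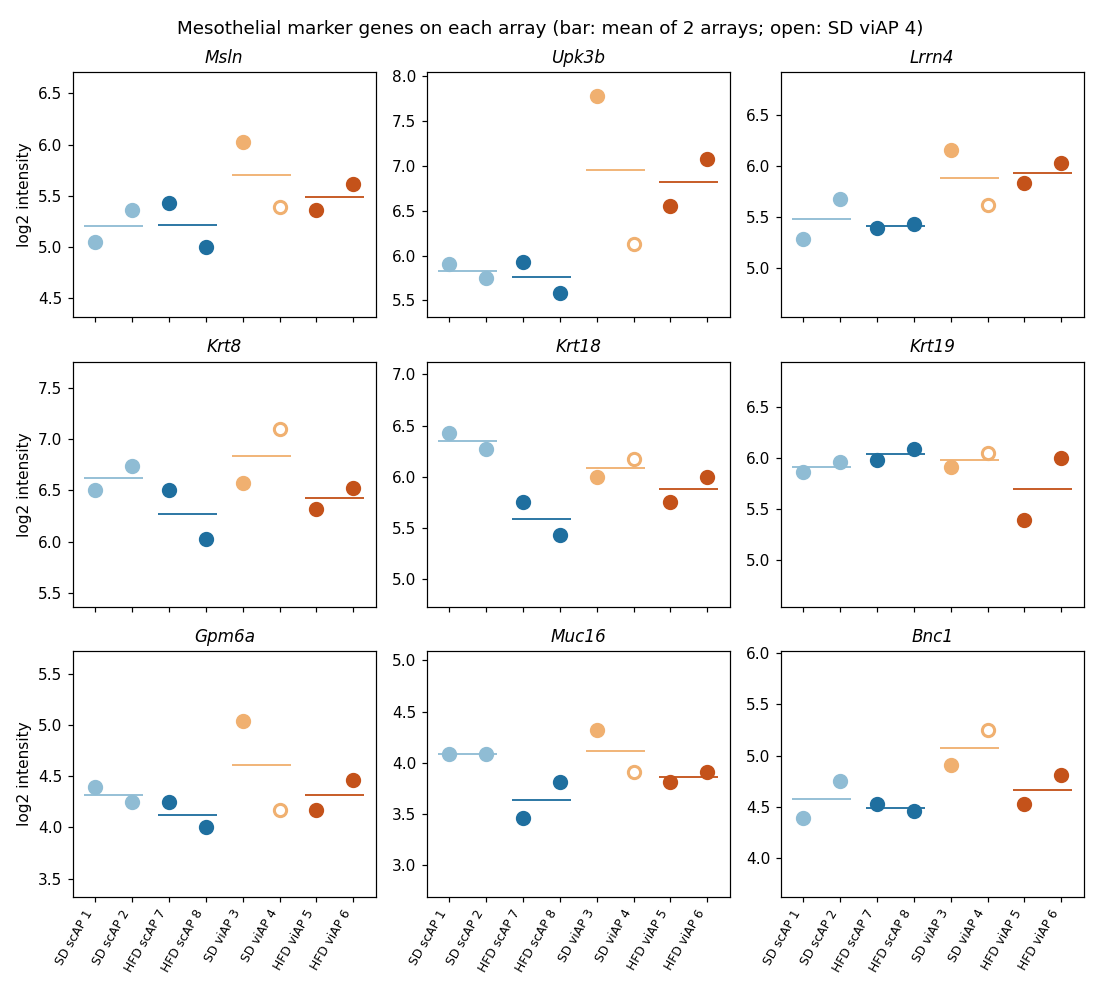
Log2 intensity of the 9 mesothelial genes, 1 panel per gene, on each of the 8 arrays, with the arrays grouped by depot and diet, a bar at the mean of each group's 2 arrays and an open point for SD viAP replicate 4. Upk3b reached 7.77 on SD viAP replicate 3 and lay between 5.58 and 5.93 on the 4 scAP arrays.

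Upk3b and Lrrn4 encode membrane proteins, uroplakin 3B and a protein with leucine-rich repeats, and were the members whose HFD viAP arrays both lay above every scAP array. The 250 bases before their start sites, from RefSeq on mouse build GRCm38.p6, are shown because a match to the short core of TEAD sites lies in each. TEAD proteins are the DNA-binding partners of YAP. The Upk3b window is chr5:136038246-136038495 on the plus strand and has a GC content of 60.8%, and the Lrrn4 window is chr2:132880863-132881112 on the minus strand and has a GC content of 59.2%. Capitals mark the core GGAATG on either strand, which reads CATTCC on the other.
Upk3b: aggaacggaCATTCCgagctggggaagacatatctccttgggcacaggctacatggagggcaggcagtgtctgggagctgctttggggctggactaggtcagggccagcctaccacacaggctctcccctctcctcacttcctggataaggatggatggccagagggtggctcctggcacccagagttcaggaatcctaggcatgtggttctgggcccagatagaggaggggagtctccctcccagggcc
Lrrn4: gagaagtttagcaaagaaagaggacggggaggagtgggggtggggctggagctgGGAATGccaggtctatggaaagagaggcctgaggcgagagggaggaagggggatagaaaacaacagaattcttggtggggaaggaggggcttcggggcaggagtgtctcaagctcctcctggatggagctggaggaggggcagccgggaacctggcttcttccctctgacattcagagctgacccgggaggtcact

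Windows were at hand for 7 members, 8 in all, and the core was found in 3 of them, those of Lrrn4, Upk3b and Gpm6a. Of all 32851 windows of this length 12.6% hold it. The GC box GGGCGG was in 1 of the 8, that of Bnc1, against 32.7% of all windows, and TATAAA in 1, that of Gpm6a, against 12.4%. The site GCGTGGGNG, read by EGR proteins and WT1, was in 0 of the 8 and in 1.65% of all. Both strands were searched, GGGCGG and GCGTGGGNG can overlap, and a match is a description of letters only.

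Upk3b was 5.91 and 5.75 in SD scAPs, 5.93 and 5.58 in HFD scAPs, 7.77 on SD viAP replicate 3, 6.13 on SD viAP replicate 4, and 6.55 and 7.08 in HFD viAPs. As deposited intensities these are 48 to 61 in scAPs against 70 to 219 in viAPs. All 4 viAP arrays lay above all 4 scAP arrays, and this includes the array that carried scAP levels of Tbx15 and Tcf21. Of all probe sets 1.9% separated the depots in that direction, and Upk3b was the only 1 of the 9 members to do so.

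Lrrn4 was 5.29 and 5.67 in SD scAPs, 5.39 and 5.43 in HFD scAPs, 6.15 and 5.61 on SD viAP replicates 3 and 4, and 5.83 and 6.02 in HFD viAPs. SD viAP replicate 4 fell inside the scAP range, and the other 3 viAP arrays lay above it. Without replicate 4, Upk3b and Lrrn4 were thus the 2 members with viAP above scAP on every array, as were 5.23% of all probe sets. Gpm6a, a membrane glycoprotein also found in neurons, was 5.04 on SD viAP replicate 3 and between 4.00 and 4.46 on the other 7 arrays. The HFD viAP arrays, at 4.17 and 4.46, overlapped with the scAP arrays for this gene.

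Msln encodes mesothelin, a glycoprotein tethered to the cell surface. Its level was 5.04 and 5.36 in SD scAPs, 5.43 and 5.00 in HFD scAPs, 6.02 and 5.39 on SD viAP replicates 3 and 4, and 5.36 and 5.61 in HFD viAPs. Only SD viAP replicate 3 and HFD viAP replicate 6 stood above every scAP array. Muc16 encodes the large mucin that binds mesothelin. Its levels were 4.09 and 4.09 in SD scAPs, 3.46 and 3.81 in HFD scAPs, 4.32 and 3.91 on SD viAP replicates 3 and 4, and 3.81 and 3.91 in HFD viAPs. Here HFD scAP replicate 7 was the lowest array, HFD scAP replicate 8 and HFD viAP replicate 5 shared the next value, and the depots overlapped. At its lowest intensity a step of 1 unit in the rounded values was worth 0.126 on the log2 scale, so differences of that size in Muc16 are at the resolution of the data.

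Krt8, a type II keratin, pairs with the type I keratin Krt18 in the filaments of simple epithelia, and Krt19 is a further type I keratin. Krt8 was 6.51 and 6.74 in SD scAPs, 6.51 and 6.02 in HFD scAPs, 6.57 and 7.10 on SD viAP replicates 3 and 4, and 6.32 and 6.52 in HFD viAPs. Krt18 was 6.43 and 6.27 in SD scAPs, 5.75 and 5.43 in HFD scAPs, 6.00 and 6.17 in SD viAPs, and 5.75 and 6.00 in HFD viAPs. For Krt8 the depots overlapped on both diets, and the array with the highest value was SD viAP replicate 4, while Krt18 was highest in SD scAPs. Krt19 lay between 5.86 and 6.09 on all arrays except HFD viAP replicate 5, where it was 5.39. None of the 3 keratins separated the 4 viAP arrays from the 4 scAP arrays, while on SD alone Krt18 was lower on both viAP arrays.

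Bnc1 encodes basonuclin 1, a zinc finger transcription factor of mesothelium and of some stratified epithelia and germ cells. It was 4.39 and 4.75 in SD scAPs, 4.52 and 4.46 in HFD scAPs, 4.91 and 5.25 on SD viAP replicates 3 and 4, and 4.52 and 4.81 in HFD viAPs. Both SD viAP arrays stood above every other array, replicate 4 highest, and the remaining 6 overlapped.

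The first comparison asked whether the members differed between depots on HFD, where no array went against its label. Of the 9 members 0 were called between HFD viAPs and HFD scAPs, beside 1.18% of all probe sets. Upk3b stood 1.06 log2 units higher in HFD viAPs (standard error 0.44, 95% interval 0.05 to 2.07), which is 2.08-fold, with limma's adjusted p at 0.436. Lrrn4 was higher by 0.52 (standard error 0.20) with an adjusted p of 0.384. These were the 2 members with an unadjusted p under 0.05, which 10.5% of all probe sets had. They were also the 2 whose HFD viAP arrays lay above both HFD scAP arrays, beside 20.3% of all probe sets, and 0 members lay below, beside 20%. Fitted without SD viAP replicate 4, which enters here only through the shared spread, Upk3b had a standard error of 0.21 and an adjusted p of 0.0652, the lowest of a range up to 1 over all alternatives. The call count stayed at 0, beside 1.85%. Leaving out SD viAP replicate 3 instead must give the same standard error and adjusted p, since a group with a single array adds nothing to the spread. The median difference of the 9 members was 0.22, that of all probe sets -0.01, and 8 of the 9 differences were above 0. Leaving out 1 array in turn, the members' median was lowest without HFD scAP replicate 8 (0.12) and without HFD viAP replicate 6 (0.14), and highest without HFD scAP replicate 7 (0.40).

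On SD, 0 of the 9 members were called between viAPs and scAPs with all 8 arrays, and 0% of all probe sets were. Upk3b was higher in SD viAPs by 1.12 (standard error 0.44, adjusted p 0.39 in limma) and Bnc1 by 0.50 (standard error 0.18, adjusted p 0.367), which was 0.33 (adjusted p 0.549) without SD viAP replicate 4. These 2 had an unadjusted p under 0.05, beside 11.6% of all probe sets. Msln, Upk3b and Bnc1 lay above both SD scAP arrays on both SD viAP arrays (background 16.9%), and Krt18 lay below (background 15.9%).

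Without SD viAP replicate 4 the SD comparison called 1 of the 9, Upk3b, beside 0.89% of all probe sets. Upk3b was then higher in SD viAP by 1.94 (standard error 0.26, 95% interval 1.32 to 2.57), a 3.85-fold difference with limma's adjusted p at 0.037. Over all alternatives its adjusted p ran from 0.037 to 0.761. The SD viAP side of this fit is the 1 array with a level of 7.77, which was assumed to vary like the other groups. Msln was higher by 0.82 (adjusted p 0.218), Gpm6a by 0.72 (adjusted p 0.173) and Lrrn4 by 0.67 (adjusted p 0.217), none of them called. With Upk3b these were 4 members with an unadjusted p under 0.05, where 13.7% of all probe sets had one. On that single array 6 members stood above both SD scAP arrays, beside 32% of all probe sets, and Krt18 stood below, beside 28.6%. The median difference of the members was 0.33 without this array and 0.29 with it, against 0.01 for all probe sets in both fits.

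Leaving out SD viAP replicate 3 instead, which leaves the array that went against its label as the SD viAP group, gave smaller differences on SD and 0 calls among the members. Upk3b was then higher in SD viAP by 0.30 (limma's adjusted p 0.728), Msln by 0.19 and Lrrn4 by 0.14. The median difference of the members was 0.14.

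**Figure D2:**
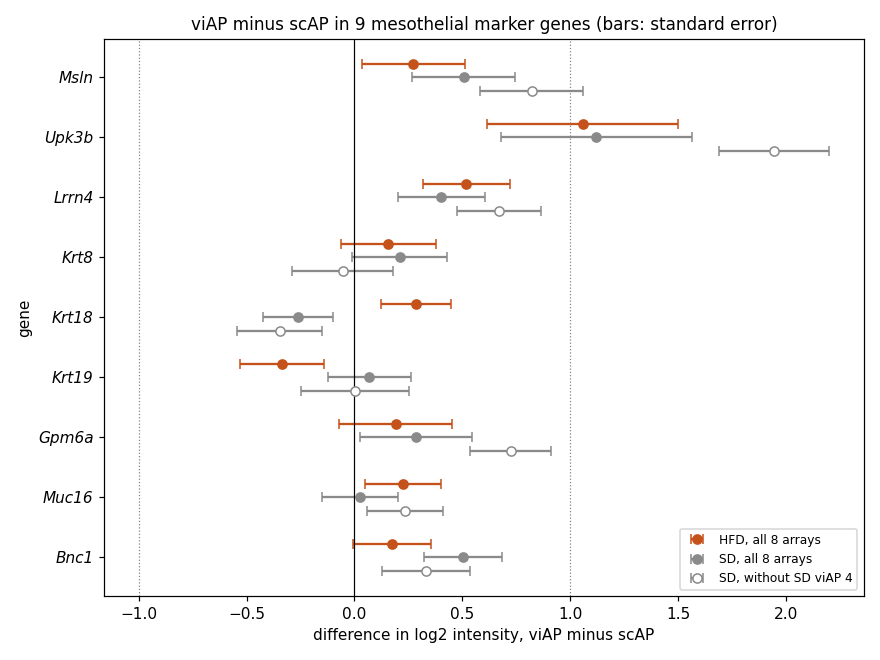
Difference in log2 intensity between viAPs and scAPs for the 9 members, on SD with all 8 arrays, on SD with SD viAP replicate 4 left out and on HFD with all 8 arrays, with bars of 1 standard error from limma and dotted lines at a 2-fold difference. Upk3b had the largest differences, 1.12 on SD and 1.06 on HFD, and on SD it was 1.94 without that array.

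The second question was whether 3 days of HFD changed the members. In viAPs 0 of the 9 were called, beside 2.36% of all probe sets, and 0 had an unadjusted p under 0.05, beside 29.4%. Upk3b differed by -0.14 between HFD and SD viAPs (standard error 0.44, 95% interval -1.14 to 0.87, limma's adjusted p 0.859). The HFD viAP arrays lay below both SD viAP arrays for Krt8 and Bnc1 (background 31.2%) and above them for 0 members (background 28.9%). The median difference was -0.26 for the members and -0.05 for all probe sets, and without SD viAP replicate 4 these were -0.24 and -0.04. Without SD viAP replicate 3 the members' median was -0.05, and without HFD viAP replicates 5 and 6 in turn it was -0.09 and -0.40.

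This comparison turned on the SD viAP arrays. Without replicate 4 the difference of Upk3b was -0.96 (standard error 0.26, limma's adjusted p 0.109), and without replicate 3 it was 0.69. Over all alternatives its adjusted p ran from 0.109 to 0.995. Gpm6a differed by -0.73 (adjusted p 0.103) and Muc16 by -0.46 (adjusted p 0.201) without replicate 4. With Upk3b these were the 3 members with an unadjusted p under 0.05, beside 22% of all probe sets, and the count called was again 0, beside 0.863%. Both HFD viAP arrays lay below SD viAP replicate 3 for 7 of the 9 members, which was so for 42.8% of all probe sets.

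In scAPs 0 of the 9 members were called between HFD and SD, beside 0.436% of all probe sets. Krt18 was lower on HFD by a log2 difference of -0.76 (standard error 0.16, 95% interval -1.13 to -0.39), with limma's adjusted p at 0.0658 and between 0.0472 and 0.301 over all alternatives. Muc16 differed by -0.45 (standard error 0.18, adjusted p 0.246). These were the 2 members with an unadjusted p under 0.05, beside 16.7% of all probe sets, and the 2 whose HFD arrays lay below both SD arrays, beside 18.8%. Krt19 lay above on both, beside 21.7%. Upk3b differed by -0.07 (standard error 0.44, adjusted p 0.964).

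The HFD scAP arrays also differed in endothelial genes. The mean log2 level of the 10 endothelial markers was 7.43 and 7.39 in HFD scAPs and between 6.04 and 6.51 on the other 6 arrays, and 9 of the 10 were higher on both HFD scAP arrays than on both SD scAP arrays, as were 21.7% of all probe sets. Markers ran from 4.32 to 10.23 over all arrays, and the part of this difference in the value of Krt18 was not tested.

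The diet differences of the depots were compared directly with the interaction term, which called 0 of the 9 members, beside 0.00459% of all probe sets. Krt18 had the only unadjusted p under 0.05 among the members, which 7.34% of all probe sets had. Its diet difference in viAPs exceeded that in scAPs by 0.55 (standard error 0.23, limma's adjusted p 0.663), and by 0.63 (adjusted p 0.749) without SD viAP replicate 4. For Upk3b the term was -0.06 (standard error 0.63, 95% interval -1.49 to 1.36) with all arrays and -0.89 without SD viAP replicate 4, with limma's adjusted p at 0.991 and 0.718, in a range of 0.461 to 1 over all alternatives.

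**Figure D3:**
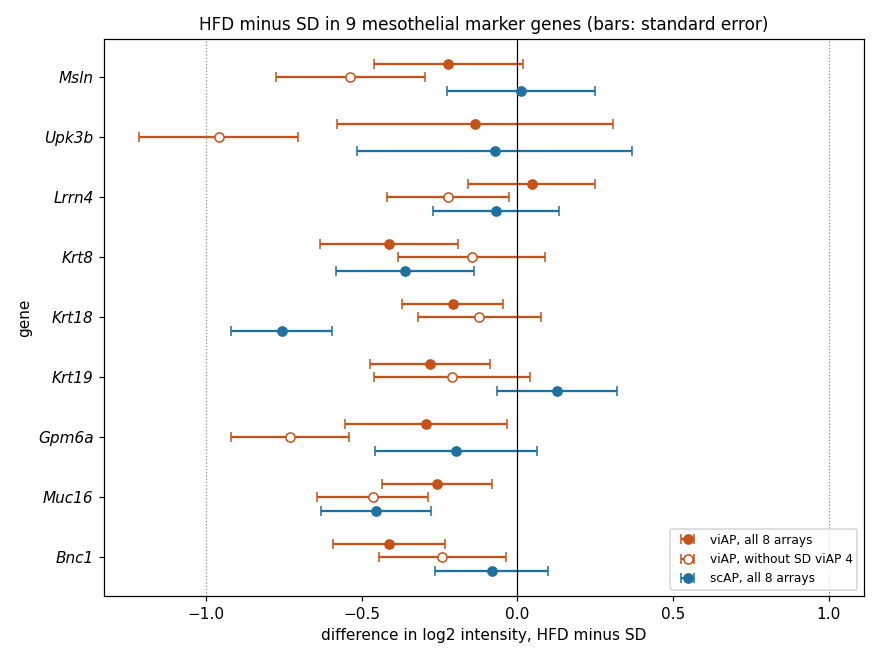
Difference in log2 intensity between HFD and SD for the 9 members, in viAPs with all 8 arrays, in viAPs with SD viAP replicate 4 left out and in scAPs, with bars of 1 standard error from limma and dotted lines at a 2-fold difference. Krt18 in scAPs was at -0.76, and Upk3b in viAPs moved from -0.14 to -0.96 without that array.

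A further 20 genes known from mesothelium were examined beside the members, 10 of which exceeded a log2 level of 7 on at least 3 arrays. Some of them, such as Wt1, are also transcribed by visceral stromal cells. Levels on the 4 scAP arrays ran from 11.68 to 12.04 for Efemp1, 10.23 to 10.66 for Pdpn and 8.57 to 10.52 for Prg4. Inguinal fat has no mesothelial cover, and the part of other cells in these levels was not tested. Between HFD viAPs and HFD scAPs 4 of the 20 were called, all higher in viAPs, beside 1.18% of all probe sets. They were Aldh1a2, which makes retinoic acid, by 3.17 (adjusted p 0.0481), Rspo1, a secreted activator of WNT signalling, by 2.23 (adjusted p 0.039), Nkain4 by 1.56 (adjusted p 0.0347) and Ezr, which links membrane to actin, by 1.30 (adjusted p 0.013). Each of these calls was lost when any 1 of the 6 arrays outside the SD viAP group was left out. Podxl, another of the 20, was lower in HFD viAPs by a log2 difference of -0.90 (limma's adjusted p 0.0281), under 2-fold and so not called. Both HFD viAP arrays lay above both HFD scAP arrays for 7 of the 20, beside 20.3% of all probe sets. They lay below for 5, beside 20%, namely Cldn15, Calb2, Dmkn, Podxl and Prg4.

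Wt1, a transcription factor of mesothelium and visceral stroma, was 8.94 and 9.09 in HFD viAPs, 8.71 on SD viAP replicate 3, 5.98 on SD viAP replicate 4 and between 5.88 and 6.51 in scAPs. Its log2 difference on HFD was 2.94, with an adjusted p of 0.0904 in limma with all 8 arrays and 0.00279 without SD viAP replicate 4, where it was called, and between 0.00279 and 0.614 over all alternatives. Prg4, a secreted lubricant of joints and serous surfaces, was called lower in HFD viAPs without that array, with a log2 difference of -1.85 (adjusted p 0.0381, up to 0.653 over the alternatives), which brought the called genes to 6 of the 20, beside 1.85% of all probe sets. Leaving out SD viAP replicate 3 in its place must give the same 2 adjusted p and the same count, since a single array adds nothing to the spread. Wt1 was also called with only the 4 HFD arrays in the fit (limma's adjusted p 0.0407). On SD, 0 of the 20 were called with all arrays and 3 without replicate 4, beside 0.89% of all probe sets. These were Wt1 (2.46), Aldh1a2 (2.50) and Rspo1 (1.86), whose differences without replicate 3 were -0.28, 0.00022 and 0.29.

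The levels of these genes and of Upk3b took different orders on the visceral arrays. Upk3b was higher on SD viAP replicate 3 than on either HFD viAP array, whereas Wt1, Aldh1a2 and Rspo1 were lower there. On SD viAP replicate 4, Aldh1a2 was 5.83, between the scAP values of 5.25 and 5.86, and Wt1 also lay within the scAP range. Upk3b at 6.13 was above the scAP values there, and so were Rspo1, at 7.63 against at most 7.46 in scAPs, and Ezr, at 7.06 against at most 6.95. Rspo1 and Ezr were the 2 of the 20 genes that, like Upk3b, had all 4 viAP arrays above all 4 scAP arrays, beside 1.9% of all probe sets. Podxl alone of the 20 went fully the other way, with 5.36 to 5.81 in viAPs and 5.83 to 6.44 in scAPs. Its highest values, 6.17 and 6.44, were on the HFD scAP arrays, where the endothelial markers were also higher. The part of other cells in the level of Podxl was not tested.

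**Figure D4:**
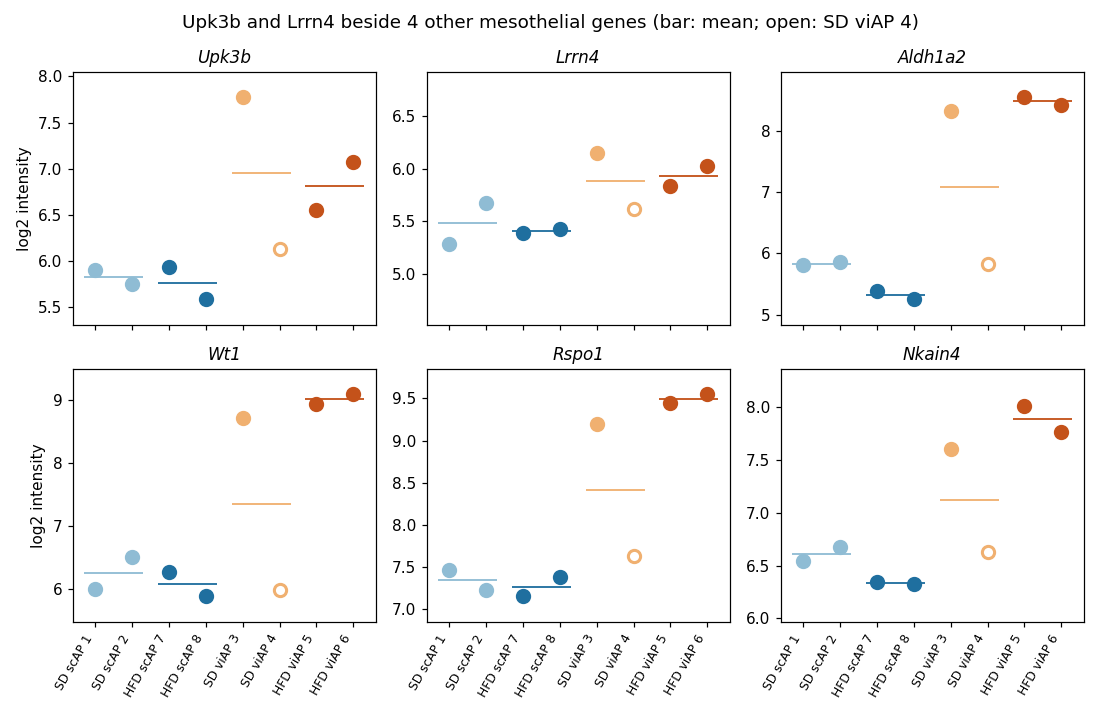
Log2 intensity of the members Upk3b and Lrrn4 and of Aldh1a2, Wt1, Rspo1 and Nkain4 on each of the 8 arrays, 1 panel per gene, with a bar at the mean of each group and an open point for the array labelled SD viAP replicate 4. On that array Wt1 (5.98) and Aldh1a2 (5.83) lay within the scAP levels and Upk3b (6.13) above them, where the highest scAP array had 5.93.

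The diet comparison in viAPs called 2 of the 20, beside 2.36% of all probe sets. Pdpn, a mucin-type membrane protein shared with stromal cells, rose by 1.15 (adjusted p 0.0121) and Prg4 fell by 1.79 (adjusted p 0.0369). Without SD viAP replicate 4 there were 0 such calls, with Pdpn at 0.84 (adjusted p 0.0522) and Prg4 at -1.10 (adjusted p 0.175). Leaving out either HFD viAP array also gave 0, and leaving out any scAP array ended the call of Prg4. Without SD viAP replicate 3, 7 of the 20 were called, beside 4.25% of all probe sets, and the SD viAP group was then the array that went against its label. In scAPs and for the interaction 0 of the 20 were called with all 8 arrays. Prg4 differed by -1.31 between HFD and SD scAPs (limma's adjusted p 0.177), and its interaction term was -0.48 (adjusted p 0.896).

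Markers of other epithelia were examined because keratins are not particular to mesothelium. The 12 genes of other epithelia ran from 4.17 to 6.91 and 0 of them exceeded 7 on 3 arrays, with Epcam between 4.52 and 4.91 and Cdh1 between 5.32 and 5.91. Of 8 genes of the epididymis, which lies against perigonadal fat, 6 were measured, between 2.81 and 5.86. Among the mesothelial genes outside the members, Upk1b, another uroplakin, was 5.81 on SD viAP replicate 3 and between 5.00 and 5.55 on the other arrays, while Calb2, which encodes calretinin, lay between 4.39 and 4.86. The part of other epithelia in the keratin levels was not tested.

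The members did not vary as 1 group. Across the 8 arrays, which share depot and diet in pairs, the 36 correlations between members ran from -0.22 to 0.90 with a median of 0.32. Upk3b correlated with Lrrn4 (r = 0.90), Msln (0.89) and Gpm6a (0.85), and with the keratins Krt8 (0.10), Krt18 (0.06) and Krt19 (-0.21). Krt8 correlated with Bnc1 (0.81) and Krt18 (0.71). Without SD viAP replicate 4, an alternative added after the data were seen, the 36 values ran from -0.20 to 0.90 with a median of 0.48, Upk3b with Bnc1 went from 0.38 to 0.74 and Krt8 with Bnc1 was 0.56. These values describe 8 arrays on which SD viAP replicate 3 was the high one for Upk3b, Lrrn4, Msln and Gpm6a.

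The mean log2 level of the 9 members was 5.86 on SD viAP replicate 3 and between 5.09 and 5.60 on the other arrays. Among 214 genes above a log2 level of 7 on at least 2 arrays and with a range of at least 2, those most like the mean standardized level of the members were Ifitm1 (r = 0.90), H4c6 (0.76), Lcn2 (0.69), Hpca (0.68), Kcnip3 (0.68), Agt (0.66), Prm2 (0.64) and Hp (0.54). Without SD viAP replicate 4 these 8 values ran from 0.65 to 0.91. Ifitm1, an interferon-induced membrane protein, was 8.28 on SD viAP replicate 3 and between 6.17 and 7.09 elsewhere. H4c6 belongs to a family of near-identical histone genes, so its value is uncertain, and Prm2, a sperm protamine, was 8.27 on HFD viAP replicate 6 and between 5.83 and 7.09 elsewhere. For Upk3b alone, a choice made after its values were seen, the nearest were Hpca (0.97), a neuronal calcium sensor, and Lcn2 (0.96), an iron-sequestering lipocalin that was 10.26 on SD viAP replicate 3, 7.93 and 7.86 in HFD viAPs and between 5.04 and 5.95 on the other arrays. Hpca, Lcn2 and Hp passed the level cut only on SD viAP replicate 3 and the HFD viAP arrays, where Upk3b was also highest. The filter on level and range thus favours such genes, and these r are a description only.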

How the data were processed

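RNA of adipose precursors from mice was hybridized to 8 Affymetrix arrays, and the sample labels alone gave the groups. The authors deposited 1 linear intensity per probe set, as whole numbers. According to the submitters' notes these are RMA values from Expression Console 1.1, whereas the methods of the paper give an R package with quantile normalization. The antilog and the rounding are described in neither source. RMA summaries shrink the differences of dim probe sets.

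Values were converted to log2. Of the probe sets, 21789 were annotated with 1 symbol, 1621 with several and 12146 with none, and the first kind was tested. limma 3.58.1 (R 4.3.3) estimated 1 mean for each group from the 8 arrays together, by lmFit and then eBayes, with 4 residual degrees of freedom. There were 5 comparisons, each adjusted by Benjamini-Hochberg over all 21789 probe sets. The paper's filter (log2 level above 7 on at least 3 arrays, upper tercile of the mean absolute deviation) keeps none of the members and served as an alternative. The number of arrays limits the precision. The procedure was tested on simulated data. Plots were made in Python 3.11.15 (matplotlib 3.10.9).

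The members and lists were chosen with earlier results of these data known. Named genes were the 9 members, the called genes of the 20 other mesothelial genes (at most 6 per comparison), the 8 genes most like the members (without Gm genes, Rik clones and small non-coding RNAs) and 4 checks of the depot labels. Other genes named were chosen after their values were seen. Lists of precursors, endothelium, other epithelium, epididymis, blood cells (8 of 10 measured, 0 above 7 on 3 arrays), pericytes and smooth muscle (9 measured, 2 above) and mature adipocytes (5 of 6 measured, 0 above) were examined. So were lists of subcutaneous (7 measured, 5 above) and visceral (6 measured, 3 above) depot genes.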

Additional observations from a re-analysis of the deposited data

How the results depend on the processing

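The count of members called was 0 in each comparison under every alternative, except on SD between depots without SD viAP replicate 4, where leave-one-out counts ran from 0 to 1. The paper's filter and the level filter alone kept 0 members and gave no member value, and averaging probe sets was not run because each member has 1. Centring arrays on their median moved the median of all probe sets from -0.05 to 0.09 for the diet in viAPs. It turned the difference of Upk3b to 0.0052 in viAPs and 0.026 in scAPs, and a second quantile normalization turned the latter to 0.033. Leaving out 1 array in turn, Upk3b ran from -0.96 to 0.69 for the diet in viAPs, from -0.25 to 0.10 in scAPs and from -0.89 to 0.76 for their difference. Gpm6a ran from -0.73 to 0.14 for the diet in viAPs and from -0.15 to 0.72 between depots on SD, where Wt1 ran from -0.28 to 2.46. Krt18 in scAPs ran from -0.92 to -0.59 and was under 2-fold with all 8 arrays.

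Of the 20 other mesothelial genes, the count called for the diet in viAPs was 2, and 1 with log2 of the value plus 16, a second quantile normalization or a trended robust prior, 3 with the paper's filter or median centring, and 0 without moderation or with only the arrays compared. Between depots on HFD it was 4, and 1 with the added 16, 2 with the second quantile normalization or the trended prior, 5 with only the arrays compared and 0 without moderation. Leaving out 1 array in turn gave 0 to 7 for the diet in viAPs, 0 to 4 for the difference of the diet changes, 0 to 3 between depots on SD and 0 to 6 on HFD. The median difference of the members then ran from -0.40 to -0.05 for the diet in viAPs, from -0.26 to -0.07 in scAPs, from -0.24 to 0.34 for the difference of these, from 0.14 to 0.33 between depots on SD and from 0.12 to 0.40 on HFD. The cause of these changes was not tested. No paired analysis was possible because the sample labels, which alone gave the replicate numbers, count the arrays through from 1 to 8, and no source used here says whether pools of different groups shared mice.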
